A study of Populus euphratica with 12 samples.

Results

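A circular RNA (circRNA) forms when the spliceosome joins a downstream splice donor to an upstream acceptor, so that the ends of 1 or more exons are closed into a ring. The only reads that tell the ring from the linear transcript of the same gene are those that cross this back-splice junction. In plants as in animals, circRNAs are usually much rarer than the mRNAs of the same genes, and a circle has neither a cap nor a poly(A) tail, so it is seen in libraries from which ribosomal RNA was removed rather than in libraries selected for poly(A). The exonic circRNAs of *Populus euphratica* leaves are described here: all circles that the deposited tables place in the type "exonic", which were 88 of 1149 circRNAs. The type is the authors' annotation of each circle, and the rule behind it is not given in the sources used here. The other circles were 958 sense-overlapping, 64 intergenic, 31 antisense and 8 intronic.

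*P. euphratica* is a desert poplar with heterophylly, that is, leaves of different shapes. Li stands for juvenile linear leaves of trees aged 0 to 3 years, and La for juvenile lanceolate leaves of trees aged 4 to 6 years. Ov stands for juvenile ovate leaves at 8 to 12 years, and Bo for juvenile broad-ovate leaves at over 20 years, with 3 libraries per group. No treatment or genotype is named for any of the 4 groups. Leaf shape and tree age changed together and cannot be told apart. The study's text calls the libraries of a group biological replicates, but no label says whether they came from separate trees, so p-values measure the spread between these libraries, which may be in part technical. All 8 photosynthetic genes found by symbol (LHCA, LHCB and PSAE members) were above 0 in all 12 libraries, at 2.31 to 837 FPKM (fragments scaled by transcript length and library size), while WUS, a regulator of the shoot meristem, was at 0 to 0.322 FPKM and the meristem gene KNAT1 at 1.02 to 24.2 FPKM. Among the group means, all 8 photosynthetic genes were highest in Li, as for LHCB3 at 183 FPKM in Li and 78.2 FPKM in Bo. For LHCB4.3 the Li and Bo means were nearly equal, at 278.754 and 278.746 FPKM. The 2 cyclins of dividing cells did not share a pattern. CYCB2;1 was highest in Li at 33.4 FPKM and lowest in Ov at 14.6 FPKM. CYCB3;1 was highest in Bo at 9.55 FPKM, beside 7.87 FPKM in Li and 7.42 FPKM in La. The group mean of KNAT1 was highest in Ov at 14.0 FPKM and lowest in Bo at 1.53 FPKM, beside 5.92 FPKM in Li and 6.33 FPKM in La.

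The circRNA values are RPM, that is, junction reads scaled by the size of the library. Within a library every RPM above 0 was a whole multiple of 1 step, within 0.01 of a step, and the lowest value was 2 steps, so the lowest value was taken as 2 junction reads. On this basis a library held 3421 to 10106 junction reads from 81.5 to 86.0 megareads, and the exonic circRNAs made up 22 to 146 of them, or 0.362% to 3.42% of the circRNA RPM. A circle listed at 0 had fewer than 2 junction reads and is not shown to be absent. In these whole-leaf libraries, fewer cells that make a circle and fewer copies per cell cannot be told apart.

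Exonic circRNAs were short, and nearly all were annotated as holding no intron. For 87 of the 88, the spliced length given in the tables equalled the genomic span, so no intron was taken out between the ends. The exception was circRNA_0355, which spanned 390 bases for a spliced length of 312. The 2 lengths were also equal for 72 of 958 sense-overlapping and 17 of 31 antisense circles, and for all 64 intergenic and all 8 intronic circles. The median span was 254.5 bases (quartiles 212.75 and 352, range 139 to 1914), and 71 of 88 circles (80.7%) were under 400 bases. Among sense-overlapping circRNAs, the most numerous type, the median span was 2117 bases, the median spliced length 695.5 bases, and 6.99% were under 400 bases. The median span was 263 bases in the 29 exonic circles found in at least 2 libraries.

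The longest exonic circles were circRNA_0496 of LOC105133241 (1914 bases, NW_011499904.1:671100-673013, minus strand), circRNA_0200 of LOC105122545 (1880 bases, NW_011499854.1:1140242-1142121, plus strand) and circRNA_0416 of LOC105130000 (829 bases, NW_011499884.1:1044720-1045548, plus strand). The shortest were circRNA_0112 of LOC105115439 with 139 bases, and circRNA_0156 of LOC105121041 and circRNA_0528 of LOC105134211 with 141 bases each. These 6 circles had 2 to 4 junction reads apiece, in 1 library. Positions here and below are those of the deposited tables, on the assembly PopEup_1.0, and the NW_ names are its scaffolds.

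All 88 exonic circRNAs lay within the genomic span of an annotated mRNA on the same strand, which is called the host here. There were 78 hosts from 78 genes on 69 scaffolds, with 40 circles on the plus strand and 48 on the minus strand. The span of a circle was a median of 5.17% of the genomic span of its host, against 33.4% for sense-overlapping circles. Of these, only 719 of 958 lay inside the host span, so their value is a ratio of lengths and not a share covered. The circles were spread along their hosts. With the host span cut into 3 equal parts, 28 midpoints lay in the part nearest the 5′ end, 25 in the central part and 35 in the part nearest the 3′ end.

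**Figure D1:**
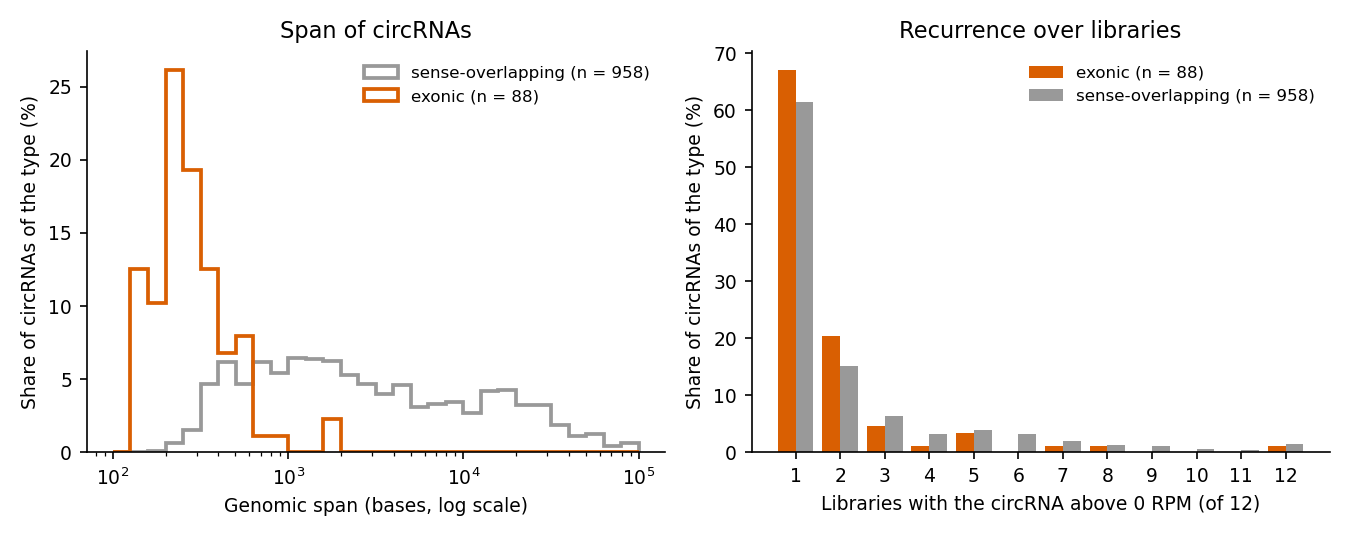
Left, genomic span in bases (log axis) of the 88 exonic and 958 sense-overlapping circRNAs, as the share of each type in % per bin. Right, the share of each type in % found in a given number of the 12 libraries. Exonic circles gather around their median of 254.5 bases, and 67.0% of them were in 1 library.

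Most exonic circRNAs were seen in 1 library. Of the 88, 59 were above 0 RPM in 1 library only (67.0%, exact Clopper-Pearson 95% interval 56.2% to 76.7%, counting error only), 18 were in 2 libraries and 11 (12.5%) in at least 3. Only 3 (3.41%) reached at least 6 libraries, and circRNA_0503 alone was above 0 in all 12. Among the 958 sense-overlapping circles, 61.4% were in 1 library, 23.5% in at least 3 and 10.02% in at least 6, and 14 were in all 12. The median total over all libraries was 4 junction reads for both types. For 21 exonic circles the whole record was 2 reads in 1 library, and 70 of 88 never passed 5 reads in a library. Where at least 3 reads were asked for, 22 exonic circles dropped out and 49 of the remaining 66 (74.2%) were in 1 library.

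Exonic circles found in 2 libraries mostly had them in different leaf groups, at a share near that of sense-overlapping circles. With 3 libraries per group, most pairs of the 12 libraries lie in different groups by design. Of the 18 exonic circles found in 2 libraries, 4 had both in the same group (22.2%), beside 35 of 145 sense-overlapping circles (24.1%). In all, 63 of 88 exonic circles were found in 1 group only, 17 in 2 groups, 5 in 3 groups and 3 in all 4 groups. Those in 1 group were a similar share over all types, at 776 of 1149 circRNAs, and among sense-overlapping circles, at 625 of 958. The exonic circles found in 1 group were 15 for Li, 18 for La, 17 for Ov and 13 for Bo, beside 164, 223, 226 and 163 over all types. None of the 63 exonic circles was in all 3 libraries of its group. One Li circle and 3 Ov circles were in 2 libraries of their group and the other 59 rested on 1 library.

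The number of exonic circRNAs per library varied as much within groups as between them. The Li libraries held 15, 6 and 16, the La libraries 13, 10 and 18, the Ov libraries 16, 8 and 17, and the Bo libraries 6, 14 and 14. The ranges of the 4 groups overlapped, and the means (± SD, n = 3) were 12.3 ± 5.51 for Li, 13.7 ± 4.04 for La, 13.7 ± 4.93 for Ov and 11.3 ± 4.62 for Bo. The summed RPM of the exonic circles was 0.697, 0.377 and 0.756 over Li1 to Li3, 1.12, 0.540 and 1.36 over La1 to La3, 0.724, 0.648 and 1.75 over Ov1 to Ov3, and 0.269, 0.697 and 0.773 over Bo1 to Bo3. The group means of this sum were 0.610 ± 0.204 RPM for Li, 1.01 ± 0.420 for La, 1.04 ± 0.617 for Ov and 0.580 ± 0.272 for Bo. One circle, circRNA_0413, supplied a large share of the high libraries. Without it the means were 0.751 RPM in La and 0.773 RPM in Ov, and those of Li and Bo stayed as they were. Without library Ov3 the Ov mean of the summed RPM was 0.686.

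**Figure D2:**
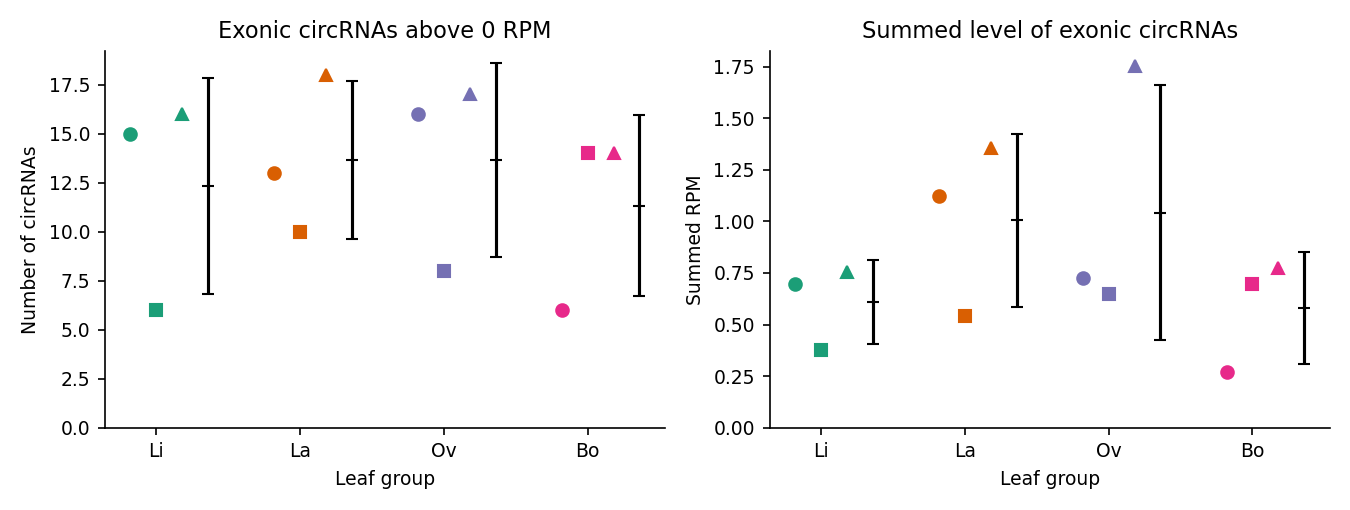
Number of exonic circRNAs above 0 RPM (left) and their summed RPM (right) in each library, by leaf group. Symbols are libraries 1 to 3, and the black mark with bars is the mean ± SD of 3 libraries. The ranges of the 4 groups overlap in both panels, and library Ov3 is the highest in summed RPM at 1.75.

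The 11 exonic circRNAs found in at least 3 libraries are the ones whose levels could be compared between groups. circRNA_0503 (NW_011499908.1:417045-417281, minus strand, 237 bases, host XM_011037643.1 of LOC105133588) was the most widespread. Its RPM was 0.0236, 0.0236 and 0.116 over Li1 to Li3, 0.0603, 0.216 and 0.234 over La1 to La3, 0.0613, 0.244 and 0.144 over Ov1 to Ov3, and 0.0612, 0.108 and 0.110 over Bo1 to Bo3. In reads, this was 2 in the lowest libraries, Li1 and Li2, and 20 in the highest, La3 and Ov2. Each group held both a low and a higher library, so the group ranges overlapped, and the mean RPM (± SD, n = 3) was 0.0545 ± 0.0535 for Li, 0.170 ± 0.0955 for La, 0.150 ± 0.0917 for Ov and 0.0933 ± 0.0278 for Bo.

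circRNA_0540 (NW_011499916.1:307433-307744, minus strand, 312 bases, LOC105134577) was above 0 in 8 libraries, none of them La. The reads were 0, 12 and 6 over Li1 to Li3, 0 throughout La, 7, 10 and 14 over Ov1 to Ov3, and 2, 6 and 8 over Bo1 to Bo3. The La and Ov groups did not overlap for this circle, nor did La and Bo, while Li held a library at 0 and one at 0.142 RPM. circRNA_0133 (NW_011499849.1:1587737-1588063, minus strand, 327 bases, LOC105120488) had 3 to 8 reads in 7 libraries spread over all 4 groups, namely Li3, La1, La3, Ov1, Ov3, Bo1 and Bo2.

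The other recurrent circles were seen in 3 to 5 libraries. circRNA_0088 (NW_011499847.1:3230118-3230294, plus strand, 177 bases, LOC105107283) had 13 and 5 reads in Li1 and Li2, 7 in Ov1, and 6 and 3 in Bo2 and Bo3, with 0 in all La libraries. circRNA_1118 (NW_011501008.1:49180-49432, plus strand, 253 bases, LOC105117040) had 3 reads in Li1, 7, 2 and 6 in La1, La2 and La3, and 5 in Ov1, with 0 in all Bo libraries. Its host is annotated as a 60S ribosomal protein L22-2-like transcript, and that protein is part of the large subunit of the ribosome. circRNA_0648 of LOC105137333 had 2 to 7 reads in Li1, La3, Ov3, Bo2 and Bo3, and circRNA_1041 of LOC105114134 had 3 reads in Li1, 2 in Li3, 12 in La3 and 2 in Ov3. circRNA_0411, circRNA_0413, circRNA_0684 and circRNA_1141 were in 3 libraries each. By mean RPM over the 12 libraries the highest were circRNA_0413 (0.131), circRNA_0503 (0.117), circRNA_0540 (0.0652), circRNA_0133 (0.0358) and circRNA_0088 (0.0339). The order by level thus differed from the order by recurrence, since circRNA_0413 led with 3 libraries.

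**Figure D3:**
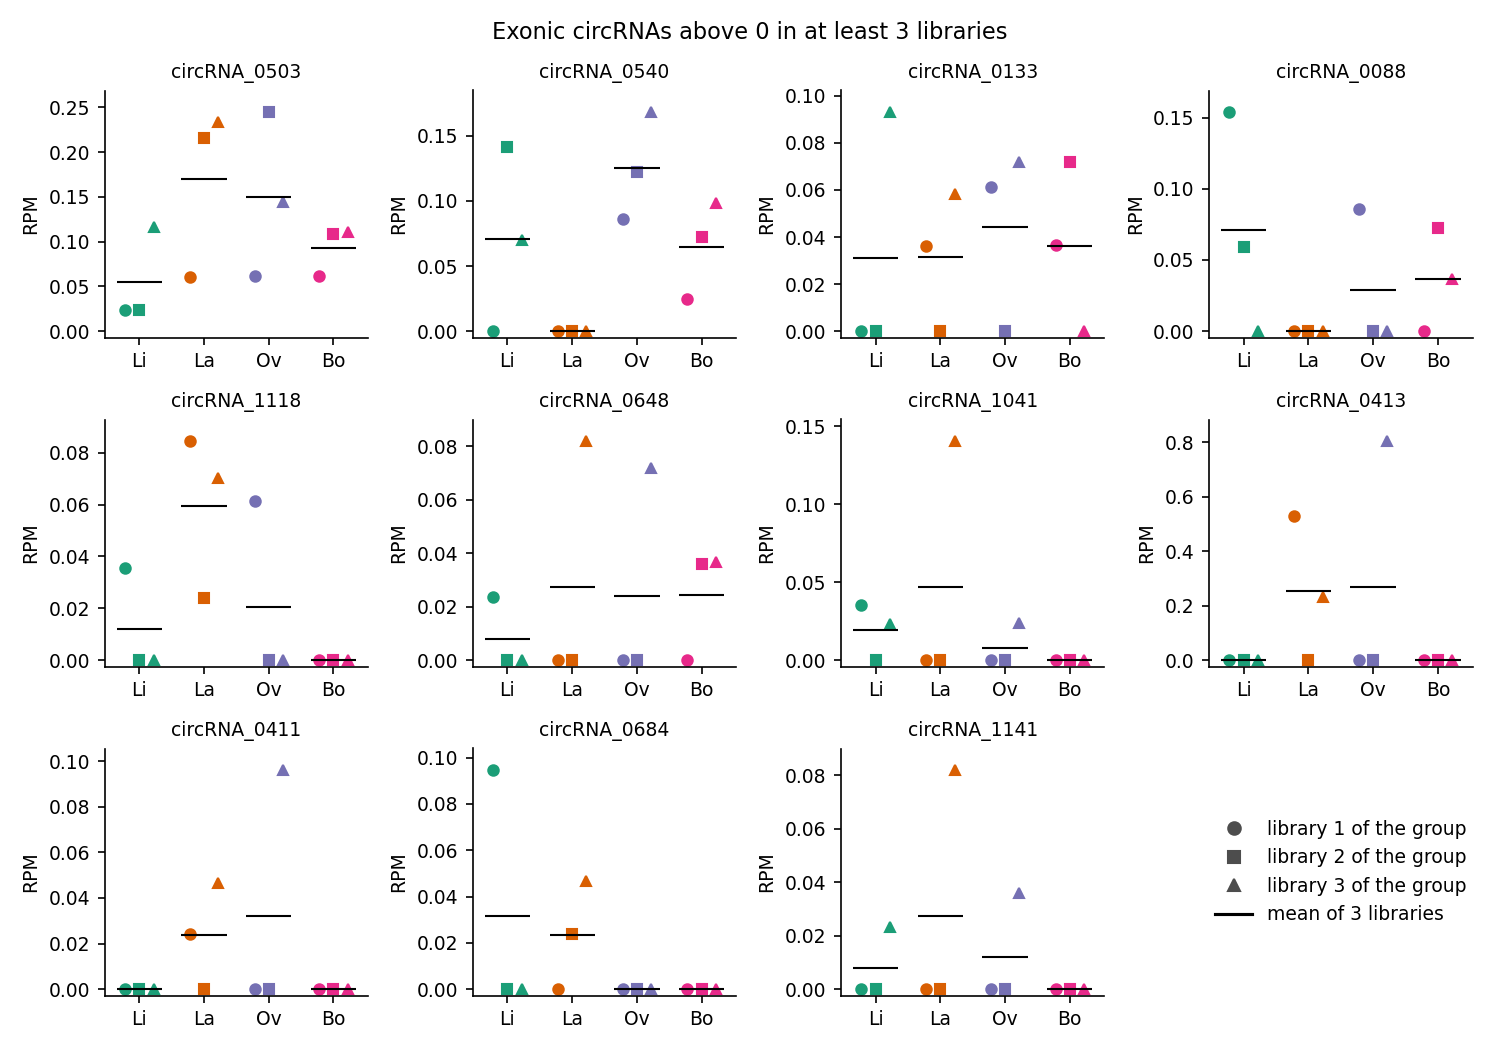
RPM of the 11 exonic circRNAs above 0 in at least 3 libraries, by leaf group. Symbols are libraries 1 to 3 of a group, the line is their mean, and each panel has its own linear scale. circRNA_0503 is above 0 everywhere, circRNA_0540 is at 0 in La, and circRNA_0413 reaches 0.804 RPM in Ov3 with 9 libraries at 0.

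No exonic circRNA differed between leaf groups after adjustment. The 244 circRNAs of all types above 0 in at least 3 libraries were fitted with limma on log2(RPM + 0.0116), and the 11 recurrent exonic circles passed that filter. At an adjusted p under 0.05, 0 of 11 were called in any of the 6 pairs or by the F test over the 4 groups, and the background over all 244 was 0% as well. At an unadjusted p under 0.05, 2 of 11 passed in some pair, beside 51 of 244 (20.9%), and 1 of 11 passed the F test, beside 18 of 244 (7.38%).

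These were circRNA_0540 and circRNA_1118. For circRNA_0540 the fitted Ov/La difference was 3.51 on the log2 scale (SE 1.05, limma unadjusted p = 0.00449, adjusted p = 0.548, with adjusted p-values of 0.364 to 1 over the alternative settings). Bo/La was 2.57 (SE 1.05, limma adjusted p = 0.648), and limma's F test gave an adjusted p of 0.609. All 3 libraries of Ov and of Bo stood above the La libraries, which were at 0, so the size of these fitted values depends on the added 0.0116 and they are not bounds. For circRNA_1118, Bo/La was -2.49 (SE 0.99, limma unadjusted p = 0.0238, adjusted p = 0.648), with all La libraries above 0 and all Bo libraries at 0. For circRNA_0413, La/Li was 3.31 (SE 1.62, limma adjusted p = 0.610), and La itself ran from 0 in La2 to 0.530 RPM in La1. In the pairs where other circles had the smallest unadjusted p, these were 0.158 for circRNA_0503 in Ov/Li, 0.226 for circRNA_0684 in Bo/Li and 0.225 for circRNA_0411 in Bo/Ov, each with an adjusted limma p of 0.499 or more.

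Over the 11 circles the median log2 difference was 0.47 in La/Li, beside 0.49 over all 244, and 0.42 in Ov/Li, beside 0.67. In Ov/La it was -0.25 beside 0.01, in Bo/La -1.002 beside -0.43 and in Bo/Ov -0.54 beside -0.42. These pairs share libraries, and the medians rest on 11 circles with many values at 0.

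Of the 88 circles, 13 came from 3 genes that held more than 1 exonic circle. LOC105138834 (host XM_011045046.1, scaffold NW_011499963.1, minus strand) gave 8 of them, circRNA_0681 to circRNA_0688, with 58 junction reads in all. Their ends were shared rather than scattered on 1 side. On the side nearer the host's 5′ end, 5 circles ended at position 479848, 2 at 479851 and circRNA_0688 at 480151, whereas the other side had 8 different positions spread over 695 bases. The circles lay toward the 3′ end of the host, with midpoints at 87.8% to 92.6% of its span. The summed RPM of the 8 circles was 0.130, 0.130 and 0.0814 over Li1 to Li3, 0, 0.024 and 0.0468 over La1 to La3, 0, 0.0367 and 0 over Ov1 to Ov3, and 0, 0.0481 and 0.196 over Bo1 to Bo3. Each circle was in 1 to 3 libraries, while at least 1 of the 8 was found in 8 libraries, including all 3 of Li. The host was at 183 to 311 FPKM in 11 libraries and at 1642 FPKM in Bo3, which was also the library with the highest sum of circles.

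LOC105129957 (host XM_011032234.1, scaffold NW_011499884.1, minus strand) gave circRNA_0411, circRNA_0412 and circRNA_0413. All 3 began at position 744277 and they ended at 744461, 744545 and 744561. Here the shared border was the one nearer the host's 3′ end, and the circles lay close to its 5′ end, with midpoints at 11.9% to 12.98% of its span. circRNA_0413 had 44 reads in La1, 20 in La3 and 67 in Ov3, and circRNA_0411 had 2, 4 and 8 reads in the same libraries. circRNA_0412 had 4 reads in La3. The summed RPM was 0.554 in La1, 0.327 in La3 and 0.9001 in Ov3, and 0 in the other 9 libraries. The host was not limited to those libraries. Its FPKM was 9.10, 2.55 and 3.81 over Li1 to Li3, 8.44, 10.7 and 17.0 over La1 to La3, 11.8, 11.9 and 37.6 over Ov1 to Ov3, and 4.35, 4.59 and 7.44 over Bo1 to Bo3, so that Ov3 and La3 had the highest host levels while La1 was exceeded by 4 libraries without a circle, namely Li1, La2, Ov1 and Ov2.

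LOC105108647 (host XM_011003039.1) gave circRNA_0863 and circRNA_0864, which shared the end at position 221932 of scaffold NW_011500076.1 and differed by 13 bases at the other side. Both were found in La1 only, with 2 and 14 reads. The host was at 9.83 to 23.5 FPKM in all 12 libraries, and La1 stood inside that range at 14.3 FPKM. At 7 genes with an exonic circle, a further 12 circles were listed as sense-overlapping. Of these, 8 shared 1 border with the exonic circle of their gene, 5 the start and 3 the end. For example, circRNA_1142 of LOC105118772 (812 bases, 3 reads in La1), began at the same position, 10131 on scaffold NW_011502043.1, as the exonic circRNA_1141 (236 bases, found in Li3, La3 and Ov3).

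**Figure D4:**
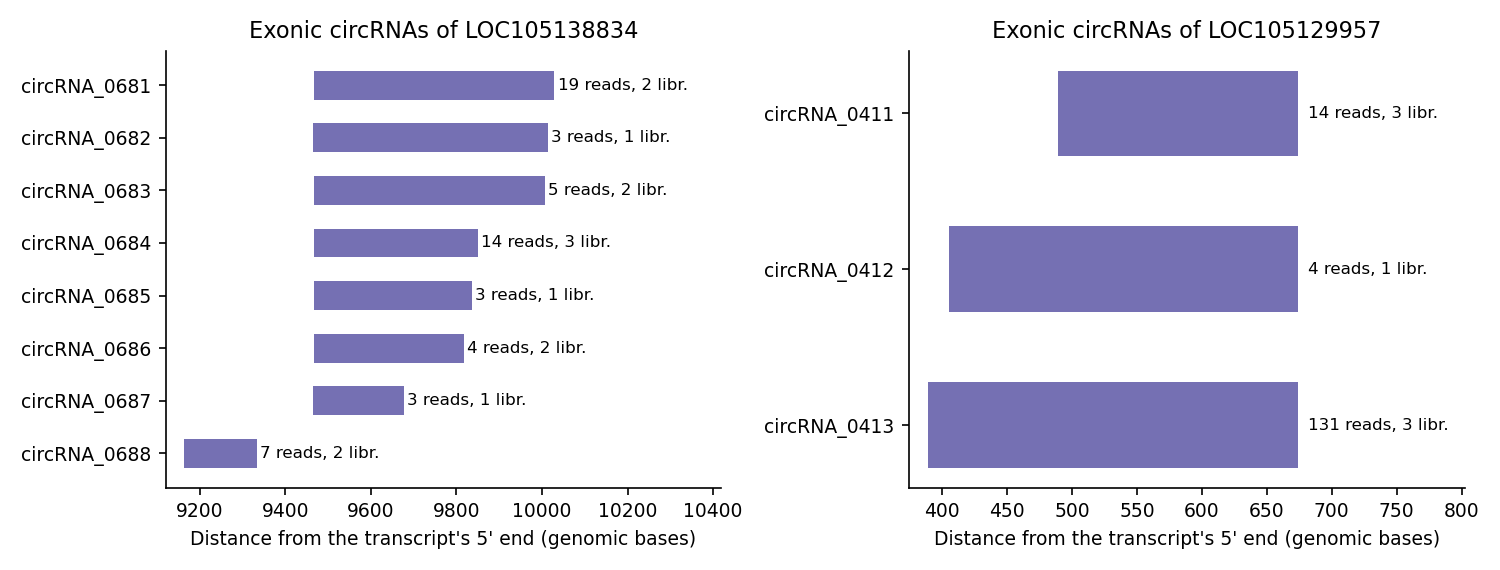
Exonic circRNAs of LOC105138834 (left) and LOC105129957 (right), drawn to scale by their distance in genomic bases from the 5′ end of the host transcript, with the total junction reads and the number of libraries beside each. Circles of LOC105138834 share their 5′ border in groups of 5 and 2, and the 3 circles of LOC105129957 share their 3′ border.

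Hosts of exonic circRNAs were among the more abundant mRNAs, while the level of the circles showed little relation to that of their hosts from gene to gene. The 78 hosts had a median of 19.2 FPKM over the 12 libraries, beside 9.98 for the 785 hosts of sense-overlapping circles and 1.75 for all 49676 mRNAs. Of the 78, 63 stood in the upper 50% of all mRNAs, 70 (89.7%) had at least 0.5 FPKM, and 14 (17.9%) had at least 100 FPKM, beside 6.11% of hosts of sense-overlapping circles and 2.58% of all mRNAs. Reads that match several transcripts were divided between them in these FPKM values, and 33 of the 78 hosts have more than 1 transcript in the tables, so their levels are less certain. Over the 88 exonic circles, Spearman's correlation of mean RPM with mean host FPKM was 0.085, and that of mean RPM with span 0.108 (across circles, which share libraries and in part hosts). Over the sense-overlapping circles the same values were -0.018 and 0.299. Of the 88 exonic circles, 52 (59.1%) had 2 to 4 junction reads in all, beside 50.4% of sense-overlapping circles. The mean RPM of such circles lay near the floor, and whether this hid a relation to host level was not tested.

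The host with the highest level was the transcript of GAMMA-TIP, which in Arabidopsis encodes an aquaporin of the vacuolar membrane, at a mean of 799 FPKM (538 to 1123 over the libraries). Its circRNA_0176 (207 bases) had 4 reads each in Li3 and Ov1 and none in the other 10 libraries. LOC105138834, with its 8 circles, was the next at a mean of 347 FPKM. This rank rests on Bo3 at 1642 FPKM, as the other libraries were at 183 to 311 FPKM. At the other end, 8 hosts were under 0.5 FPKM. They belonged to circRNA_0307, circRNA_0344, circRNA_0355, circRNA_0378, circRNA_0606, circRNA_0909, circRNA_0987 and circRNA_0992, which had 2 to 6 reads each. The lowest, the host of circRNA_0987 (XM_011007513.1), was at 0.000122 FPKM while the circle had 4 reads in 1 library.

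A gene symbol other than a locus number was available for 13 of the 88 circles, which are named here after their values were seen. All 13 were in 1 or 2 libraries with 2 to 10 reads, so that only their presence can be given. Roles given here are those of the Arabidopsis namesakes. circRNA_0444 of ZDS, a desaturase on the path to lycopene, had 8 reads in Ov2 (0.0978 RPM). circRNA_1123 of CYP97A3, a carotenoid hydroxylase, had 4 reads in Ov3, and circRNA_0481 of NPQ1, the violaxanthin de-epoxidase of the xanthophyll cycle, had 3 in La3. Their hosts were at means of 27.4, 40.4 and 1.43 FPKM. The rest included circRNA_1053 of VRN5, a PHD finger protein of the vernalization response, with 4 reads in Bo2, circRNA_0965 of HDG2, a homeodomain factor of the epidermis, with 3 in La2, circRNA_0323 of ATU2AF65A, a splicing factor subunit, with 4 in Li1, circRNA_1108 of the ubiquitin ligase UPL7, with 2 in Ov1, and circRNA_0742 of SHD, a chaperone of the endoplasmic reticulum, with 2 in Li3. The SHD host was at 274 FPKM, and the ATU2AF65A host at 0.651 FPKM.

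Circles found once were in the library with the highest host level at a share near that of sense-overlapping circles, and more often than not among the upper 6. A library drawn at random would be the highest for 1 in 12 circles. It would be among the highest 3 for 3 in 12 and among the upper 6 for 6 in 12. For 7 of the 59 exonic circles in 1 library (11.9%), that library had the highest host FPKM of the 12, beside 12.2% of sense-overlapping circles in 1 library. For 22 of 59 (37.3%) it was among the highest 3, beside 31.5% of such sense-overlapping circles. For 40 of 59 (67.8%) it was among the upper 6 of the 12 libraries, beside 54.4%. For the 28 exonic circles in 2 to 11 libraries, the mean log2 host level was higher in the libraries with the circle than in those without it in 15 (53.6%), with a median difference of 0.06 on the log2 scale. Among 356 such sense-overlapping circles it was higher in 64.0%, with a median difference of 0.08. No test was run on these shares.

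Across libraries, 1 of the 3 exonic circles that could be examined rose and fell with its host. circRNAs above 0 in at least 6 libraries were correlated with their hosts on log2 scales, 99 of them over all types, with permutation p-values adjusted over those 99. Of the 99, 11 were called (11.1%) and 71.7% had r above 0, with a median r of 0.185. circRNA_0503 had Pearson r = 0.80 with XM_011037643.1 (n = 12 libraries, permutation p = 0.00198, adjusted p = 0.0211) and Spearman rho = 0.75 (permutation p = 0.00704, adjusted p = 0.0498). The host levels were 145, 138 and 144 FPKM over Li1 to Li3, 170, 302 and 262 over La1 to La3, 128, 241 and 190 over Ov1 to Ov3, and 125, 158 and 175 over Bo1 to Bo3. The 3 libraries with the highest host FPKM, La2, La3 and Ov2, were also the 3 with the highest circRNA_0503. Without La2 and La3, the libraries farthest from the median host level, r was 0.73, and with the group means removed r was 0.79. Without the Ov libraries r was 0.77. The permutations treated the 12 libraries as exchangeable, although same-numbered La and Ov libraries deviated together from their group means, so these p-values may be too small. Leaving out La3 alone gave r = 0.76 with an adjusted permutation p of 0.0505, just past the threshold. Over 17 alternative settings r ranged from 0.76 to 0.89.

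For the other 2 the relation did not pass the test, and r was negative. circRNA_0540 had r = -0.24 (n = 12, permutation p = 0.442, adjusted p = 0.771) and rho = -0.04 (permutation p = 0.906, adjusted p = 0.955). Its host XM_011039037.1 was at 4.08, 7.64 and 10.6 FPKM in the La libraries where the circle was at 0, a range that holds the Ov values of 5.41, 7.26 and 7.39 FPKM. circRNA_0133 had r = -0.25 (n = 12, permutation p = 0.424, adjusted p = 0.763) and rho = -0.28 (permutation p = 0.371, adjusted p = 0.75). Without Li3 and La3, the libraries farthest from the median host level for each of these circles, r was 0.05 and 0.06. The gene of circRNA_0133 has 6 transcripts in the tables, and with their FPKM summed r was 0.16. With the group means removed r was -0.22 for circRNA_0540 and -0.59 for circRNA_0133, and without the Ov libraries it was -0.51 and -0.52. Leaving out Ov3 alone gave r = -0.51 for circRNA_0133. Neither circle passed the adjusted threshold in any of the 16 alternative settings.

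**Figure D5:**
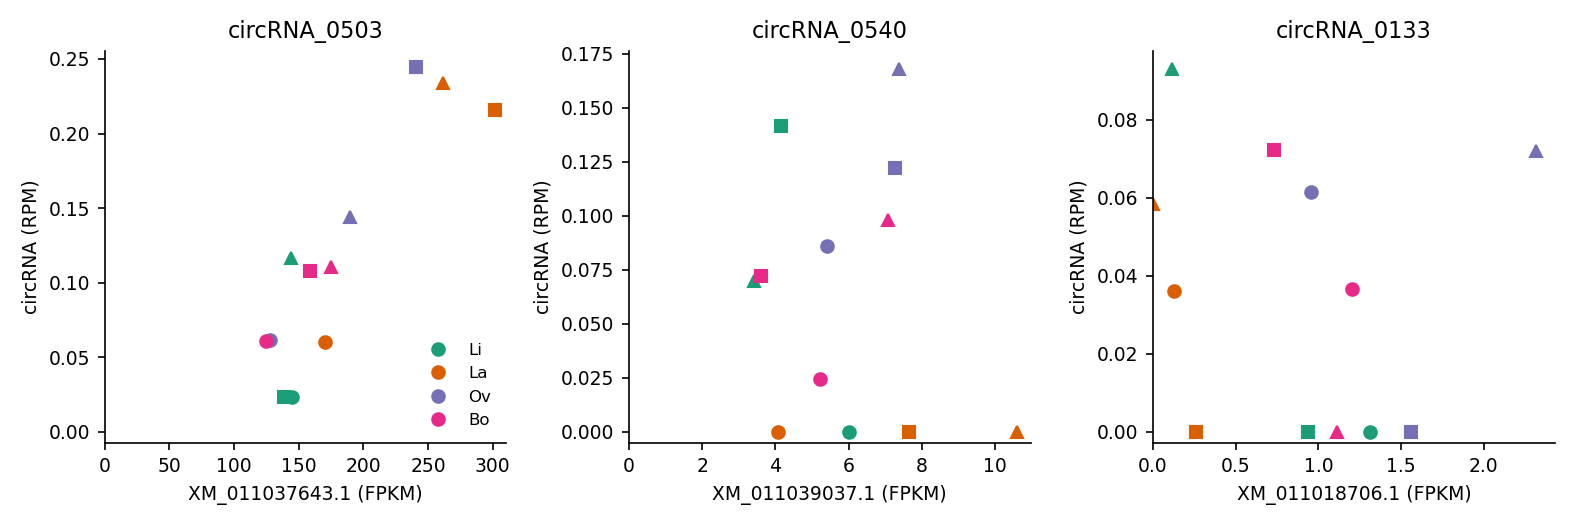
RPM of circRNA_0503, circRNA_0540 and circRNA_0133 against the FPKM of the host transcript, each point a library coloured by leaf group, with circles, squares and triangles for libraries 1, 2 and 3. circRNA_0503 is highest in La2, La3 and Ov2, where its host is highest, at 241 to 302 FPKM, and r is -0.24 for circRNA_0540 and -0.25 for circRNA_0133.

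When the circle was set against its host as a log2 ratio of RPM to FPKM, 0 of 11 exonic circles were called by limma in any pair or by the F test, and the background over all 212 circRNAs fitted was 0%. At an unadjusted p under 0.05 there were 3 of 11 in some pair, circRNA_0540, circRNA_0684 and circRNA_1118, beside 59 of 212 (27.8%). For circRNA_0540 the ratio was higher in Ov than in La by 3.58 on the log2 scale (SE 1.01, limma unadjusted p = 0.00407, adjusted p = 0.772). For circRNA_1118 the fitted ratio was higher in La than in Li by 2.42 (SE 0.96, limma unadjusted p = 0.0262, adjusted p = 0.556). Over the same groups its host was at 40.4 ± 5.01 FPKM (SD, n = 3) for Li, 27.3 ± 8.85 for La, 20.0 ± 8.60 for Ov and 16.9 ± 7.21 for Bo.

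Among the hosts themselves, 1 of the 70 that passed the level filter differed between groups. XM_011019212.1 of LOC105120824 was at 10.4, 6.87 and 12.3 FPKM over Li1 to Li3, 27.0, 26.3 and 68.7 over La1 to La3, 76.2, 41.8 and 142 over Ov1 to Ov3, and 25.7, 66.0 and 51.6 over Bo1 to Bo3. The Li libraries were below all others, while La, Ov and Bo overlapped. Ov/Li was 2.88 on the log2(FPKM + 1) scale (SE 0.51, limma adjusted p = 0.0495), and the background in this pair was 99 of 32309 mRNAs, or 0.306%, with 0.73% called in any pair. The adjusted p ranged from 0.0257 to 0.211 over 20 alternative settings and was above 0.05 without Li1 (0.0555), Li2 (0.211), Li3 (0.164), La1 (0.0630), La2 (0.0691), Ov1 (0.101), Ov3 (0.188) or Bo2 (0.0773), so the call was not stable. The size of the difference stayed at 2.44 to 3.31 on the log2 scale with each Li or Ov library left out in turn. Leaving out a La or Bo library cannot change this size. The photosynthetic markers were at their highest group mean in Li, and the mean of KNAT1 was higher in Ov than in Li. The part of these markers in this difference was not tested. The exonic circle of this host, circRNA_0012 (NW_011499845.1:3173582-3173862, minus strand, 281 bases), had 2 reads in Ov1 and none elsewhere.

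No host was called in the other 5 pairs or by the F test, where the background over the 32309 mRNAs was 0.0279% in La/Li, 0.508% in Bo/Li, 0% in Ov/La, 0.149% in Bo/La, 0.108% in Bo/Ov and 0.266% by the F test. At an unadjusted limma p under 0.05, 29 of 70 hosts passed in some pair, beside 36.8% of all mRNAs tested. Libraries of La and Ov that share a number deviated together from their group means, and with those numbers as a block 2 of 70 hosts (2.86%) were called in any pair, beside 988 of 32309 mRNAs (3.06%), so the share of hosts was near the background. XM_011019212.1 remained called in Ov/Li (adjusted p = 0.0498) and was called in Bo/Li as well (2.10, adjusted p = 0.0241, against 0.0880 without the block). The second was XM_011016801.1, the host of circRNA_1141, which was at 4.07 ± 0.492 FPKM (SD, n = 3) for Li, 6.14 ± 0.672 for La, 6.92 ± 2.09 for Ov and 10.2 ± 0.869 for Bo. Its Bo/Li difference of 1.14 had an adjusted limma p of 0.0379 with the block and 0.0620 without it, and circRNA_1141 itself was at 0 in all Bo libraries. The median difference over the 70 hosts was 0.22 on the log2 scale in Ov/Li, beside 0.01 over all mRNAs, and 0.13 in Bo/Li, beside 0.07. It was 0.08 in La/Li, beside 0.0005, and 0.06 in Ov/La, beside -0.007. In Bo/La and Bo/Ov the hosts lay below all mRNAs, at -0.01 beside 0.05 and -0.02 beside 0.07.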

How the data were processed

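Total RNA was depleted of ribosomal RNA and sequenced as strand-specific paired-end libraries. The deposited circRNA values are RPM, which the authors computed from junction reads found with CIRI, and which list no value under 2 reads. The deposited mRNA values are FPKM, estimated by the authors with Bowtie2 and eXpress, and their depth is unknown. The lncRNA tables were not used here. Groups and replicate numbers came from sample titles. Symbols came from a RefSeq gene table of a later version of the assembly and matched all 88 exonic circRNAs.

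limma 3.58.1 (R 4.3.3, trend, two-sided) was fitted with 4 group means to all 12 libraries, on log2(RPM + 0.0116) for circRNAs above 0 in at least 3 libraries, on log2(FPKM + 1) for mRNAs with a mean of at least 0.5 FPKM, and on their difference. The fits were tested on simulated data, and p-values were adjusted by Benjamini-Hochberg over all features of a fit and pair. Fold changes on these scales understate low values. Correlations used 100000 two-sided permutations (SciPy 1.17.1). Circles were named for recurrence, level, smallest p, span, shared genes and host level. The circles and lists were chosen with earlier results of these data known.

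Same-numbered La and Ov libraries had correlated deviations from their group means (0.162, 0.359 and 0.468 for circRNAs, 0.246, 0.641 and 0.662 for mRNAs). This pairing comes from the data, as no label states it, and in no other pair of groups were all 3 correlations above 0.1 (Bo and Ov mRNAs had 0.321, 0.0407 and 0.289). Alternatives covered the filter, pseudocount, scaling, trend, adjustment, replicate block, libraries left out and detection at 3 reads.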

Additional observations from a re-analysis of the deposited data

How the results depend on the processing

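The count of exonic circRNAs called between groups was 0 under all alternatives (0 of 88 without the filter and 0 of 3 for circles in at least 6 libraries, otherwise 0 of 11) but the unadjusted p, where it was 2. For the ratio to the host it was 0 of 11 but for the unadjusted p, where it was 3. The count of hosts called, 1 of 70, depended on the setting and the cause was not tested. It was 29 at an unadjusted p, 5 with the replicate number as a block over all 4 groups (of which only the La and Ov numbers pair), where 2.22% of all mRNAs were called, 2 with the block of La and Ov only (3.06% of all mRNAs), and 0 within the 2 groups of a pair, without the variance trend, without the filter (0 of 78) and after upper quartile scaling. It was 0 to 3 with 1 library left out, with 3 without Bo3 (3.24% of all mRNAs) and 0 without Li1, Li2, Li3, La1, La2, Ov3 or Bo2. Without Ov1 the host called was XM_011016801.1 in place of XM_011019212.1. The number of exonic circles correlated with their host was 0 to 1 with 1 library left out, being 0 without La3. The block changed no call of an exonic circRNA or of its ratio, while over all 244 circRNAs the block of La and Ov called 3 in any pair and the main setting 0. The block of La and Ov and the FPKM summed over the gene were chosen after seeing the data.

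Group means of circles per library and of summed RPM moved by no more than 1 SD of the libraries, and recurrence stayed within its counting interval, under each alternative. The median span moved from 254.5 to 263 bases. The planned count tests on junction reads were not run, since the tables list nothing under 2 reads. With most circles at 2 to 4 reads, a value of 0 does not show that a circle is absent. The 77 exonic circles in fewer than 3 libraries entered a fit only without the filter, where 3 of 1149 circRNAs were called.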
